A study of Rattus norvegicus with 6 samples.

Results

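The alpha subunits of the GABA-A receptor were examined through 5 genes, Gabra2, Gabra3, Gabra4, Gabra5 and Gabra6, chosen by their rat gene symbols from the 38445 genes counted in each RNA-seq library. The rule uses no measured value. The tissue was the amygdala of adult male Sprague Dawley (wild type) rats. Control rats received saline by intraperitoneal injection, and ethanol rats received ethanol at 1 g/kg by the same route. Both groups were killed 1 h later. Each library held RNA pooled from 2 rats, so that 6 rats per group gave 3 libraries per group and 6 libraries in all. No transgene or deletion was involved. The spread between libraries is therefore a spread between pools of different rats, and differences between the rats of a pool were not measured. The comparison asks whether the mRNA of these subunits differed between ethanol-exposed and saline-injected rats at this early time.

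GABA-A receptors are pentameric chloride channels that open when GABA binds, and they carry most fast inhibition in the brain. A typical receptor combines alpha and beta subunits with a gamma or delta subunit, and GABA binds at the interface of alpha and beta. The alpha subunit sets the affinity for GABA, the response to benzodiazepines and much of the receptor's position on the neuron. Receptors with alpha2 are known for their role in the anxiolytic action of benzodiazepines, and the receptor family has long been studied as a target of ethanol. The amygdala, which processes fear and anxiety, holds glutamatergic neurons in its basolateral part and GABA neurons in its central part.

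The counts per library lay between 62576504 and 70755739, and 3 counts corresponded to 0.0424 to 0.0479 CPM (counts divided by the library total and scaled to a common size). Levels below are CPM scaled by TMM, edgeR's library scaling. Over all 18141 genes tested by edgeR's quasi-likelihood test, 0 had a Benjamini-Hochberg adjusted p below 0.2, the limit the study used. Those with an unadjusted p below 0.05 numbered 753, and the likelihood ratio test and DESeq2 placed 77 and 75 genes below the adjusted limit. The study, by its own analysis, also reported genes below that limit. Tissue markers differed between libraries of 1 group, and for 2 lists the summed levels of the groups did not overlap. No list was tested as a set. The summed level of 6 oligodendrocyte markers ran from 3548 CPM in control 2 to 9724 CPM in ethanol 3. The summed level of 9 choroid plexus markers was 520.0 to 1125 CPM in the controls, 13.5 and 14.6 CPM in ethanol 1 and 2, and 482 CPM in ethanol 3. The log2 fold change was below 0 in all 8 that were tested. By edgeR's quasi-likelihood test 4 of these had an unadjusted p below 0.05, while 2.58% of all genes tested were lower at that limit. The 6 ependymal and motile cilia markers summed to 44.1 to 61.6 CPM in the controls and 33.4 to 37.2 CPM after ethanol, all 6 below 0 (5 with an unadjusted p below 0.05). Their part in the values below was not tested. Amygdala markers were present, with Prkcd of the central nucleus at 20.7 to 24.5 CPM and Rspo2 of the basolateral nucleus at 7.37 to 28.97 CPM. The neuropeptide gene Npy was listed at 0 in every library, and the neuronal enolase gene Eno2 did not exceed 0.0765 CPM. Why these values were so low was not tested, and they do not show that the genes were not expressed.

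The 5 genes lie on 4 chromosomes in the Rnor_6.0 build, and each sits in a cluster with genes of other GABA-A subunits. Gabra2 (NCBI gene 289606) spans chr14:39662411-39801082 on the plus strand, and Gabra4 (140675) lies 508.3 kb away at chr14:39154072-39230994 on the same strand. Gabrb1 and Gabrg1, which encode beta1 and gamma1, complete that cluster, with starts 1031.2 kb and 302.1 kb from that of Gabra2. Gabra3 (24947) spans chrX:152414332-152642607 on the minus strand, beside Gabre and Gabrq, the genes of epsilon and theta. Gabra5 (29707) spans chr1:112833941-112947482 on the minus strand, beside Gabrg3. Gabra6 (29708) is the shortest at chr10:27847447-27862896 on the minus strand, with Gabrb2 126.2 kb away. The counted exons ran from 2894 bases in 11 blocks for Gabra3 to 6688 bases in 11 blocks for Gabra4. None of the 5 genes shares exonic bases with another gene on either strand.

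RefSeq promoter sequence (build GRCr8, the 250 bases before the annotated start) was at hand for 4 of the 5 genes. It is shown for Gabra3 and Gabra4, whose levels kept closest step across the libraries and whose promoters differ in base composition. The sequences read 5′ to 3′ on the strand of the gene, and capitals mark each CG dinucleotide.
Gabra3, chrX:155543871-155544120, minus strand: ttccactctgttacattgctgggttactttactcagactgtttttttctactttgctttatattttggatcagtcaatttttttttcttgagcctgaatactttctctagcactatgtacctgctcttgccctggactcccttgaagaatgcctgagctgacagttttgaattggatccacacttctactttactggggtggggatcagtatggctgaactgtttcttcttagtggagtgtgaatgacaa
Gabra4, chr14:36944497-36944746, plus strand: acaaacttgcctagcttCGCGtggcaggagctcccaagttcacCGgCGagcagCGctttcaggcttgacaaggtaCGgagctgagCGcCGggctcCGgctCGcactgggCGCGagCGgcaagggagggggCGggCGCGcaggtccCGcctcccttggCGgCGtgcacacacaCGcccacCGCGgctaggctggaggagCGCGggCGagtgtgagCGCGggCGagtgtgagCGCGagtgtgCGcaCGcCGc

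The Gabra4 promoter held 33 CG dinucleotides at a GC content of 71.6%, and 96.4% of the 33469 rat promoters of the same length held fewer. The Gabra3 promoter held 0 CG dinucleotides at 40.4% GC. Gabra5, at chr1:117516607-117516856, resembled Gabra4 with 37 CG dinucleotides and 76.4% GC, while Gabra6, at chr10:27327235-27327484, resembled Gabra3 with 0 and 41.2%. The median over all promoters was 5 CG dinucleotides and 51.2% GC. On both strands, the cAMP response half-site TGACG (in 18.2% of all promoters), the EGR core GCGTGGG (3.7%), the hypoxia response core ACGTG (16.6%) and the glucocorticoid half-site AGAACA (17.5%) had no match in any of the 4. The second hypoxia core form GCGTG, which also lies within the EGR core and occurs in 25.9% of promoters, had 4 matches in Gabra4 and 0 in the other 3. These matches describe letters only.

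Gabra2 was the most abundant of the 5 genes per unit of exon length, followed by Gabra3 and Gabra5 at about the same level, then Gabra4 at a lower level, and Gabra6 at a small fraction of the others. On the TPM scale, which divides counts by exon length and sets each library to the same sum, Gabra2 reached 236 ± 36.9 TPM (SD, n = 6 libraries). Gabra3 stood at 119 ± 14.2 TPM and Gabra5 at 112 ± 27.4 TPM. Gabra4, whose subunit is known mainly from extrasynaptic receptors with delta, stood at 52.5 ± 5.51 TPM. Gabra6, a subunit gene known for its restriction to cerebellar granule neurons, stood at 1.63 ± 0.373 TPM.

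Neighbours in this order were set apart in every library except 1 pair. Gabra2 was 1.82 to 2.27 times Gabra3 within a library, Gabra5 was 1.69 to 3.07 times Gabra4, and Gabra4 was 21.0 to 41.3 times Gabra6. Gabra3 and Gabra5 did not differ beyond their spread. The ratio of Gabra3 to Gabra5 ran from 0.769 in control 2, the library with the highest Gabra5, to 1.30, and it was above 1 in the other 5 libraries. Among all genes tested, 95.7% had a lower TPM than Gabra2 and 22.7% a lower TPM than Gabra6.

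The share of Gabra2 in the alpha mRNA varied little between libraries, and the shares of the other 4 genes varied more. The summed TPM of the 5 genes was 459 in control 1, 608 in control 2, 496 in control 3, 553 in ethanol 1, 592 in ethanol 2 and 414 in ethanol 3. The group means were 521 ± 77.3 and 520.0 ± 93.6 TPM for control and ethanol (SD, n = 3). The share of Gabra2 in that sum stayed between 44.0% and 46.0% in all 6 libraries. Gabra3 took 20.0% to 24.7%, Gabra4 8.45% to 11.2% and Gabra5 18.6% to 26.0%, with the highest share of Gabra5 and the lowest shares of Gabra3 and Gabra4 all in control 2. Gabra6 never exceeded 0.480% of the sum.

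Set among the other subunits, Gabra2 had the highest mean TPM of the 18 GABA-A subunit genes examined. Gabrg1 (gamma1) followed at 175 TPM. Gabra3 and Gabra5 lay between Gabrg1 and Gabrb2 (beta2, 100.4 TPM), and Gabra4 lay between Gabrb2 and Gabrb1 (beta1, 47.5 TPM). Gabrd (delta) stood at 41.2 TPM. Gabra6 lay below Gabre (epsilon, 4.70 TPM) and above the rho subunit genes, of which Gabrr2 was the highest at 0.875 TPM. Neighbouring genes of a cluster could differ widely, since Gabrb2 shares the cluster of Gabra6.

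**Figure D1:**
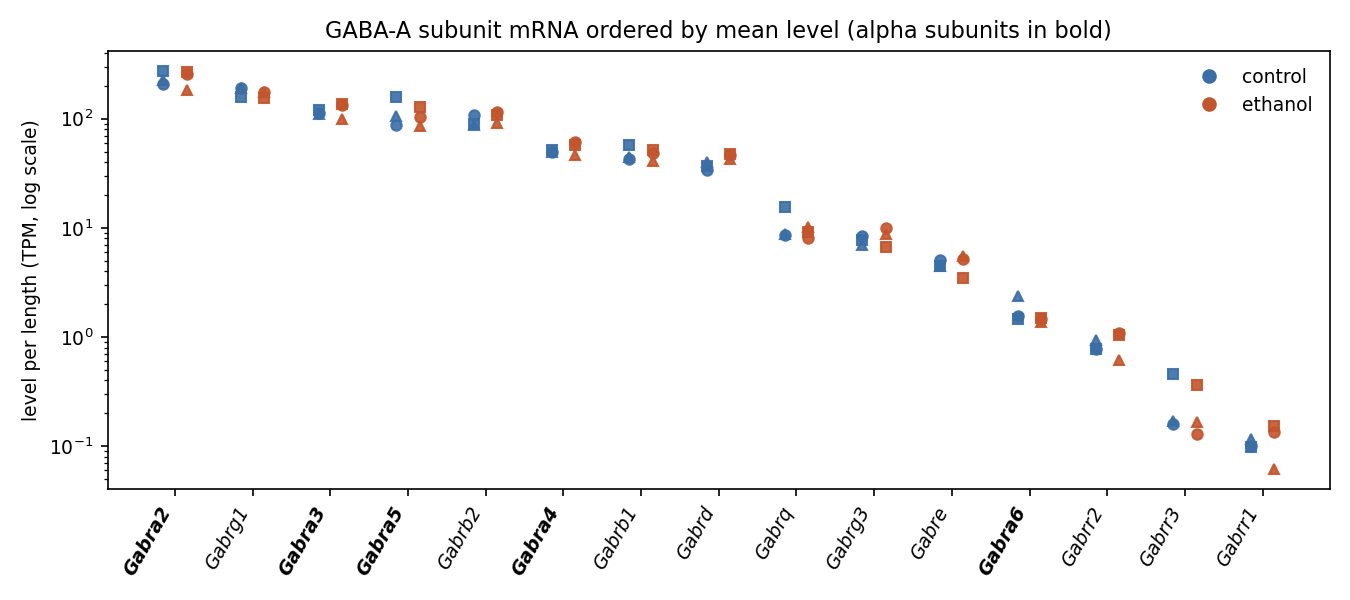
Level per exon length (TPM, log axis) of 15 GABA-A subunit genes in each of the 6 libraries, ordered by the mean, with control in blue and ethanol in orange. Circles, squares and triangles are replicates 1, 2 and 3, and the alpha subunit genes are in bold. Gabra2 leads at 236 TPM, Gabra6 stands at 1.63 TPM, and Gabrp, listed at 0 in some libraries, is not drawn.

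Ethanol and control libraries did not differ beyond their spread in any of the 5 alpha subunit genes. By edgeR's quasi-likelihood test 0 of 5 had an unadjusted p below 0.05, against 4.15% of all genes tested (1.57% higher and 2.58% lower after ethanol), and the Benjamini-Hochberg adjusted p was 1.0 for each. The groups overlapped in all 5, while they did not overlap in 8.85% of all genes tested (3.65% higher and 5.19% lower after ethanol). Log2 fold changes of ethanol over control were above 0 in 3 and below 0 in 2, with a median of 0.002, beside 52.6% of all genes above 0 and a median of 0.006. In bulk tissue, fewer cells of a type and less RNA per cell cannot be told apart.

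Gabra2 had the same mean level in both groups. It stood at 366, 466 and 389 CPM in control 1, 2 and 3, and at 436, 467 and 319 CPM in ethanol 1, 2 and 3. The lowest and the highest library both belonged to the ethanol group, and the control values lay between them. The means were 407 ± 52.4 and 407 ± 78.2 CPM (SD, n = 3), and the log2 fold change was 0.00 with a 95% interval from -0.36 to 0.36. The exact permutation test gave p = 1.0, where 0.1 is the smallest two-sided p that 3 against 3 libraries allow.

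Gabra3, whose subunit is known from monoaminergic neurons, stood at 129, 132 and 123 CPM in the controls and at 147, 152 and 111 CPM after ethanol. Ethanol 1 and 2 lay above all controls and ethanol 3 lay below them. The log2 fold change was 0.10 ± 0.11 (SE), with an interval from -0.17 to 0.36 and an unadjusted p of 0.422 by edgeR's quasi-likelihood test.

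Gabra4 showed the same arrangement with even tighter controls. The controls stood at 129, 129 and 128 CPM, and the ethanol libraries at 155, 148 and 120 CPM. The SD of the 3 controls was only 0.782 CPM, and the ethanol values enclosed them. The log2 fold change was 0.14 ± 0.09 (SE), with an interval from -0.08 to 0.35 and an unadjusted p of 0.189 by edgeR's quasi-likelihood test. Without ethanol 3, the log2 fold change was 0.24 for Gabra4 (unadjusted p = 0.0026, adjusted p = 0.286) and 0.23 for Gabra3 (unadjusted p = 0.0055, adjusted p = 0.355) by the same test. Thus 2 of 5 genes had an unadjusted p below 0.05 without that library, beside 8.87% of all genes tested in the same fit (4.15% with it), and none passed the adjusted limit of 0.2. Without ethanol 1, that of Gabra4 was 0.06.

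Gabra5, whose subunit is best known for tonic inhibition in hippocampal pyramidal neurons, varied most among libraries. It stood at 103, 176 and 120 CPM in the controls and at 116, 148 and 98.6 CPM after ethanol. The highest library was control 2 and the lowest ethanol 3, and replicate 2 was the highest in each group. The log2 fold change was -0.14 ± 0.21 (SE), with a wide interval from -0.63 to 0.35, and it turned to 0.11 without control 2.

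Gabra6 stood at 1.85, 1.66 and 2.73 CPM in the controls and at 1.68, 1.74 and 1.61 CPM after ethanol. These levels rest on 108 to 173 counts per library. The 3 ethanol libraries were close together, and the control mean of 2.08 ± 0.569 CPM was drawn up by control 3. The log2 fold change was -0.31 ± 0.20 (SE), with an interval from -0.78 to 0.16, and it was -0.07 without control 3. The 7 cerebellar granule neuron markers summed to 65.2 to 71.3 CPM in the controls and 60.9 to 68.0 CPM after ethanol, with the highest sum in control 3. The mean log2 level of the 4 markers with a mean of at least 1 CPM (Pax6, Zic1, Neurod1 and Cbln1) had r = 0.639 with Gabra6. Fat2, Cbln3 and Barhl1 had means of 0.657, 0.235 and 0.205 CPM. They made up little of the sum and are not part of that r. Fat2 was at its highest in control 3 (1.36 CPM) and Barhl1 in ethanol 3 (0.445 CPM). Cbln3 stood at 0.347 CPM in control 3 and at nearly the same level, 0.345 CPM, in ethanol 3. The part of such cells in the Gabra6 value was not tested.

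**Figure D2:**
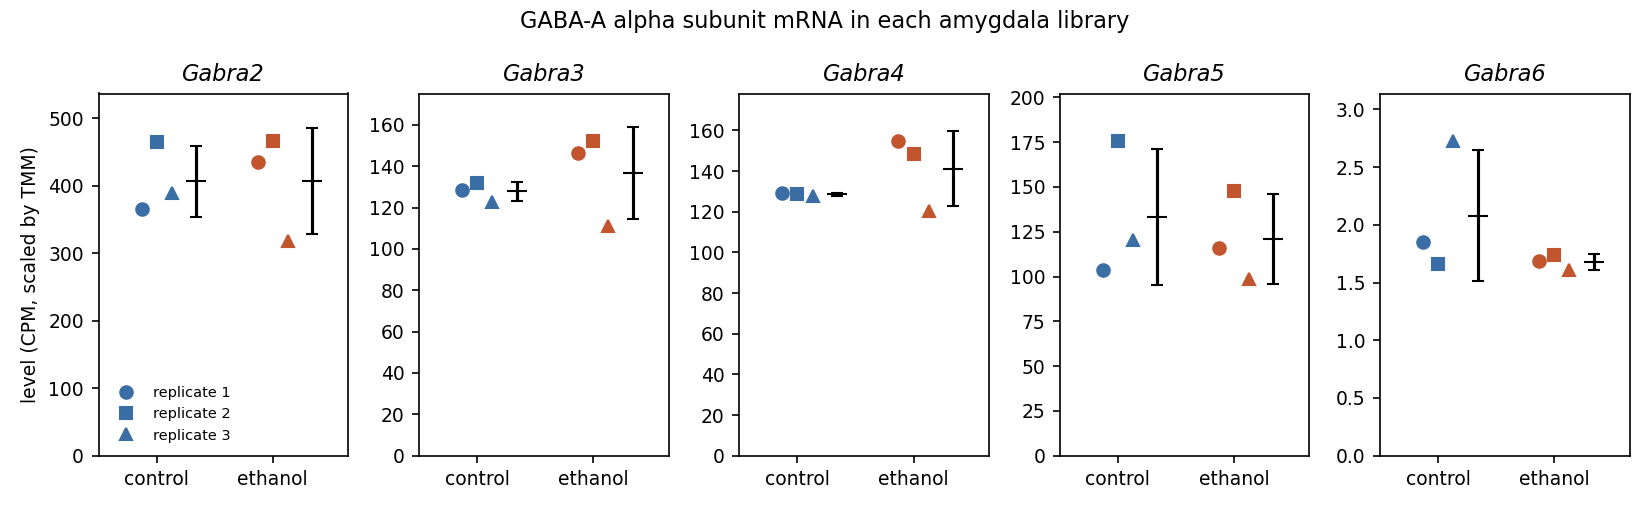
Level (CPM scaled by TMM, axes from 0) of the 5 alpha subunit genes in each library, control in blue and ethanol in orange, with circles, squares and triangles for replicates 1, 2 and 3 and black bars for the group mean ± SD (n = 3). The groups overlap in every panel, and the triangle of ethanol 3 is the lowest of 6 points in each, though only by little for Gabra6.

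Libraries of 1 group differed more in these genes than in most. The SD of log2 CPM within groups was 0.24 for Gabra2, 0.18 for Gabra3, 0.14 for Gabra4, 0.35 for Gabra5 and 0.27 for Gabra6. The median over the 14760 genes with a mean of at least 1 CPM was 0.11, and 94.3% of those genes had a smaller SD than Gabra5. The highest library was 1.78 times the lowest for Gabra5 and 1.29 times the lowest for Gabra4. One library, ethanol 3, was the lowest of 6 for all 5 genes, but for Gabra6 only by little (1.61 CPM against 1.66 CPM in control 2). Its 112 counts of Gabra6 equalled those of ethanol 2 and exceeded the 108 of ethanol 1.

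Gabra3 and Gabra4 kept close step across libraries, Gabra2 followed both Gabra3 and Gabra5, and Gabra4 and Gabra5 were only loosely alike. Over the 6 libraries, the Pearson r of log2 CPM was 0.93 between Gabra3 and Gabra4 (Spearman rho 0.886), 0.861 between Gabra2 and Gabra5 (rho 0.886) and 0.85 between Gabra2 and Gabra3 (rho 0.886). It was 0.688 for Gabra2 with Gabra4 (rho 0.6), 0.501 for Gabra3 with Gabra5 (rho 0.6) and 0.253 for Gabra4 with Gabra5 (rho 0.257). Gabra6 had r between -0.203 and -0.087 with the other 4. These are descriptions over 6 points that share their libraries and their scaling. As deviations from the group means, Gabra3 and Gabra4 had r = 0.949.

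Cell type markers moved with the same libraries. Glutamatergic neuron markers, 8 genes that include the vesicular glutamate transporter gene Slc17a7, summed to 1386, 1912 and 1663 CPM in the controls and to 1910, 2181 and 1490 CPM after ethanol. Their mean log2 level had r = 0.912 with Gabra2, 0.935 with Gabra3, 0.851 with Gabra4, 0.683 with Gabra5 and -0.193 with Gabra6 over the 6 libraries. Oligodendrocyte markers, such as the myelin gene Mbp, went the other way. They summed to 8377, 3548 and 5860 CPM in the controls and to 4354, 6020 and 9724 CPM after ethanol, with r = -0.856 for Gabra2, -0.558 for Gabra3, -0.476 for Gabra4, -0.789 for Gabra5 and -0.006 for Gabra6.

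Control 2, with the most Gabra5, had the fewest oligodendrocyte transcripts and the lowest sum of 10 striatal-type GABA neuron markers (479.5 CPM, against 532 to 666 CPM elsewhere). Those striatal-type markers had r = -0.943 with Gabra5 and -0.238 with Gabra4. The 6 general GABA neuron markers, such as Gad1, ranged only from 1336 to 1561 CPM and had r between -0.501 and -0.112 with the 5 genes. Ethanol 3, with the least of every alpha subunit gene (by little for Gabra6), had the most oligodendrocyte transcripts. Its pan-neuronal sum was the lowest, 8511 CPM against 8731 to 10250 CPM elsewhere. The mean log2 level of the 8 choroid plexus markers with a mean of at least 1 CPM had r = -0.91 with Gabra4 and 0.026 with Gabra5. The part of tissue composition in the levels of the alpha subunit genes was not tested. Scaled to the pan-neuronal genes in place of TMM, the log2 fold changes were -0.07, 0.02, 0.06, -0.21 and -0.38 for Gabra2 to Gabra6, against a median of -0.05 over all genes.

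**Figure D3:**
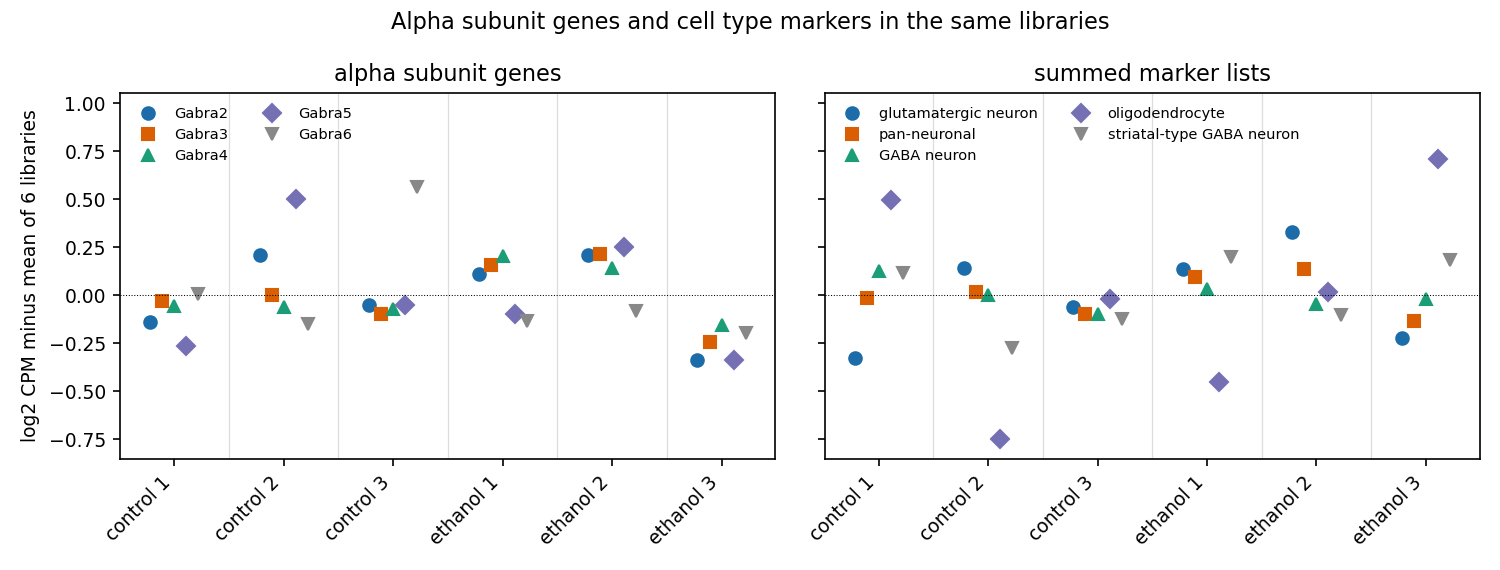
Log2 CPM minus the mean of the 6 libraries for the alpha subunit genes (left) and for the summed CPM of 5 marker lists (right), with the 6 libraries along the horizontal axis and 1 symbol per gene or list. In ethanol 3 all 5 genes lie below 0 and the oligodendrocyte sum is at its highest, and in control 2 Gabra5 is at its highest and the oligodendrocyte sum at its lowest.

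The genes whose pattern over the 6 libraries was most like each alpha subunit gene were sought among 14760 genes with a mean of at least 1 CPM. For Gabra2 they were Dmxl2 (r = 0.9965, rho 1.0) and Sptan1 (r = 0.9964, rho 0.943), the gene of alpha-II spectrin. For Gabra3 they were Napg (r = 0.9984, rho 1.0), whose product gamma-SNAP acts in membrane fusion, and Slc39a6 (r = 0.9959, rho 1.0). For Gabra4 they were the neuronal splicing factor gene Rbfox1 (r = 0.9933, rho 0.829) and the kinase gene Plk2 (r = 0.9929, rho 0.771).

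For Gabra5 they were Tenm2 (r = 0.997, rho 0.943) and Slit2 (r = 0.9964, rho 1.0), a teneurin and an axon guidance ligand gene. For Gabra6 they were Tmem106a (r = 0.9808, rho 0.771) and Pdpn (r = 0.9721, rho 0.829). With so many genes and 6 libraries, high values arise readily, and 325 genes exceeded r = 0.95 for Gabra2, 262 for Gabra3, 115 for Gabra4, 132 for Gabra5 and 8 for Gabra6.

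The partners that complete a receptor with an alpha subunit were read from the same fit. Of 13 partner subunit genes 11 were tested, Gabrp and Gabrr3 being too low, and 1 had an unadjusted p below 0.05, against 4.15% of all genes tested. Log2 fold changes were above 0 in 8 of the 11, with a median of 0.135, beside 52.6% of all genes and a median of 0.006. Of the 14 pan-neuronal markers tested, 12 were above 0, with a median of 0.08. The 1 gene was Gabrd, which encodes delta, the subunit that pairs with alpha4 in the forebrain and alpha6 in cerebellar granule neurons in extrasynaptic receptors.

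Gabrd stood at 23.9, 24.8 and 27.2 CPM in the controls and at 31.3, 32.8 and 29.6 CPM after ethanol. All 3 ethanol libraries lay above all 3 controls, which was so in 3.65% of all genes tested. The means were 25.3 ± 1.697 and 31.3 ± 1.599 CPM (SD, n = 3). The log2 fold change was 0.31 ± 0.07 (SE), with an interval from 0.13 to 0.48 and an unadjusted p of 0.0037, but with Benjamini-Hochberg correction of edgeR's quasi-likelihood p-values the adjusted p was 0.884 and the gene was not called. The exact permutation p was 0.1, the smallest possible. With the libraries scaled to the pan-neuronal genes, the number of partner genes with an unadjusted p below 0.05 was 0. Whether Gabrd differed from Gabra4 in its response was not tested.

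The partners named here other than Gabrd gave intervals that included 0. Gabrg1 had a log2 fold change of -0.09 (95% interval -0.33 to 0.15) and Gabrb2 0.15 (-0.13 to 0.43). Of the cluster neighbours, Gabrb1 beside Gabra2 and Gabra4 had -0.03 (-0.31 to 0.25), and Gabrg3 beside Gabra5 had 0.14 (-0.23 to 0.50). Beside Gabra3, Gabre had 0.03 (-0.39 to 0.45) and Gabrq -0.26 (-0.77 to 0.25).

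**Figure D4:**
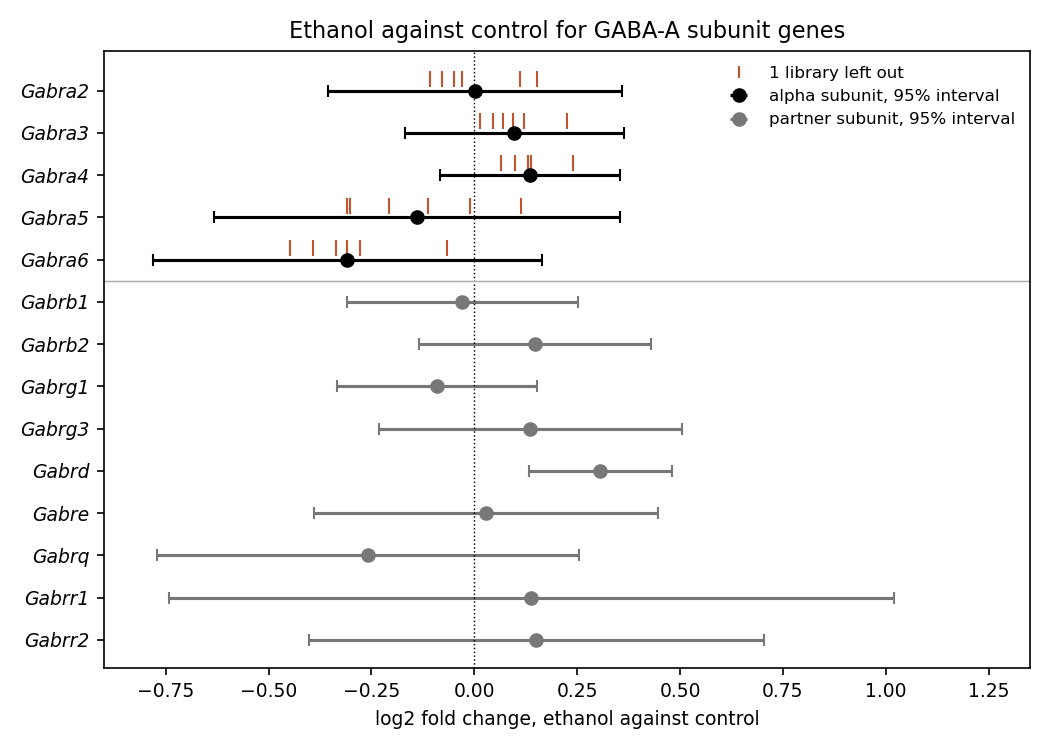
Log2 fold change of ethanol over control with its 95% interval for the 5 alpha subunit genes (black) and 9 of the 11 tested partner subunit genes (grey), from edgeR's quasi-likelihood fit of 3 against 3 libraries. Orange ticks give the alpha subunit values with 1 library left out. All 5 alpha intervals include 0, the Gabrd interval lies from 0.13 to 0.48, and the ticks of Gabra2 and Gabra5 fall on both sides of 0.

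Genes that place and move GABA-A receptors, such as the scaffold gene Gphn (gephyrin), were read the same way. Of 21 such genes tested, 0 had an unadjusted p below 0.05 (4.15% of all genes tested), 15 had a log2 fold change above 0 (52.6% of all genes), and the median was 0.036 with a range from -0.09 to 0.15. The 3 most abundant were Gabarapl1 (929.7 TPM), which encodes a homologue of the receptor-associated protein GABARAP, Nsf (652 TPM), the ATPase that recycles membrane fusion complexes, and Hap1 (471 TPM), which takes part in receptor recycling. Their log2 fold changes were 0.04, 0.15 and -0.08, with 95% intervals from -0.14 to 0.21, -0.15 to 0.44 and -0.31 to 0.15.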

How the data were processed

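RNA-seq counts from 6 amygdala libraries, 3 per group, were used. Per the file headers, the authors made the counts with featureCounts 1.6.3 in its reverse-stranded setting over the exons of Rnor_6.0 genes, leaving out reads aligned to several places, and deposited whole-number counts without normalization. The submitters' processing notes also name FastQC 0.11.8 and STAR 2.7.0f. Exon lengths, used for TPM, came from the same deposited tables.

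The fit used edgeR 4.0.16 under R 4.3.3. The filterByExpr filter (minimum 10 counts, 15 in total) left 18141 genes. After TMM scaling, groups were compared by the quasi-likelihood F test, with p-values adjusted by Benjamini-Hochberg over these genes. The script was checked on simulated data. SEs were the log2 fold change divided by the square root of F. Log2 CPM carried a prior count of 2. Alternatives used DESeq2 1.42.0, limma 3.58.1 and other settings. Symbols came from a RefSeq gene table for 29322 of 38445 identifiers. Within a group, libraries varied beyond counting error. The 5 genes were described in full, partners by TPM, unadjusted p or cluster, and likeness by Pearson r. Marker genes named singly were picked with their values known. The genes and lists were chosen with earlier results of these data known. Chromatin data were not analysed here, and some genes of the lists are counted but not reported singly.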

Additional observations from a re-analysis of the deposited data

How the results depend on the processing

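The 5 alpha subunit genes had adjusted p values above 0.2 under all 15 alternatives. At an unadjusted p below 0.05 they numbered 0 of 5 in 14 alternatives and 2 of 5 (Gabra3 and Gabra4) without ethanol 3, where the share of all genes tested was 8.87%. Gabra3, Gabra4 and Gabra6 kept the sign of their log2 fold change under each of them. Gabra2, at 0.00, took a negative sign with DESeq2 and with relative log expression size factors (-0.0009 each), limma-voom (-0.0069), library size alone (-0.0276), pan-neuronal scaling (-0.0737), a filter of at least 1 CPM in 3 libraries (-0.0040) and the replicate block (-0.0095). With 1 library left out, the log2 fold change ran from -0.11 to 0.15 for Gabra2, from 0.01 to 0.23 for Gabra3, from 0.06 to 0.24 for Gabra4, from -0.31 to 0.11 for Gabra5 and from -0.45 to -0.07 for Gabra6. Gabra5 changed sign without control 2 (0.11). The cause of these shifts was not tested.

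Genes below the adjusted limit of 0.2 numbered 0 in the analysis above, 77 with the likelihood ratio test, 75 with DESeq2, and 0 to 83 with 1 library left out (83 without ethanol 3, 4 without ethanol 1). The number of partner genes with an unadjusted p below 0.05 was 0 with pan-neuronal scaling, where 2.78% of all genes tested had one, against 4.15% in the analysis above. It was 1 to 3 with 1 library left out, namely 2 without control 1 (3.91% of all genes) and 3 without ethanol 3 (8.87% of all genes). As CPM per kilobase, the levels were 90.3 for Gabra2, 45.7 for Gabra3, 20.2 for Gabra4, 42.8 for Gabra5 and 0.626 for Gabra6, in the same order as in TPM. Both scales divide the same counts by the same exon lengths, so the order within a library could not differ between them.

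Both groups carry replicate numbers 1 to 3, on different rats. Deviations of same-numbered libraries correlated by 0.0264, 0.388 and 0.211 over 14241 genes, and control 1 with ethanol 3 by 0.305, so the numbers were not taken as a pairing. With the replicate block, the log2 fold changes were -0.0095, 0.08, 0.13, -0.12 and -0.28 for Gabra2 to Gabra6, 0 genes had an adjusted p below 0.2, and 1 partner gene had an unadjusted p below 0.05. Counting error is largest for Gabra6, at 108 to 173 counts per library, and the 3 libraries per group limit the precision of all 5.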
